A study of Artemia parthenogenetic lineage with 3 samples.

Results

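The regions described here are the accessible chromatin peaks that lie over the start of a gene longer than 13000 bp in *Artemia* cysts at 30 min after embryonic diapause termination (EDT). A merged peak was included when its distance to the start of its assigned gene was 0 bp, so that the peak covered the start, and when the length of this gene exceeded 13000 bp. This rule used position and gene length only, and no signal. It gave 2791 of the 108316 merged peaks (2.58%), 1 for each of 2791 genes on 1065 contigs, and 89.3% of the 3126 peaks over any gene start. The samples were whole cysts of wild type *Artemia* of a parthenogenetic lineage, reactivated in artificial seawater after dehydration and cold treatment had broken diapause. They formed the single ArR_30min group with 3 replicates, so no comparison between conditions was made, and each comparison below is between classes of peaks within the same libraries. Reads had been aligned to ASM3288406v1, the assembly of the related species *Artemia franciscana*, and all positions refer to it.

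In animal cells, the DNA at the start of an active gene is commonly held free of nucleosomes by transcription factors and the transcription machinery, and a well-placed nucleosome often follows just downstream. In ATAC-seq the Tn5 transposase inserts adapters into such open DNA, so that reads pile up over the start. The cyst holds a gastrula whose transcription is nearly silent in diapause and resumes when development restarts.

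Replicates 1, 2 and 3 had 53022269, 56882821 and 82440231 reads, and start peaks of longer genes held 6.16% (6.14 to 6.18), 4.66% (4.65 to 4.68) and 4.86% (4.84 to 4.87) of all reads in peaks. The ranges are Wilson 95% intervals, which cover counting error only. A median start peak held 120, 89 and 143 reads in the 3 replicates. At least 10 reads in every library were found in 2790 of the 2791. This is near the share of all merged peaks, 96.7%, and of start peaks of genes of 13000 bp or less, 99.7%. Replicate 1 stood apart at these regions, where its median log2 ratio to the geometric mean of replicates 2 and 3 was 0.47. Values without it, or for each replicate, are therefore given for several of the results. The study describes biological replicates from the same batch of cysts, so the SD measures the spread within this batch.

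Start peaks of longer genes had more signal than peaks in general in every replicate, and less of a lead per kb of width. The signal is given in RPM, the reads of a peak scaled to the total of its library. The median start peak had 2.28, 1.58 and 1.75 RPM in the respective replicates, on average 1.87 ± 0.366 (SD, n = 3), and 1.66 RPM without replicate 1. The median of all merged peaks was 0.698, 0.668 and 0.716 RPM. Per kb the start peaks had 2.96 ± 0.565 RPM and all merged peaks 2.15 ± 0.0691 RPM (SD, n = 3). The signal was at least 1 RPM in all 3 replicates at 2124 start peaks of longer genes (76.1%, exact 95% interval 74.5 to 77.7), against 23.2% of all merged peaks. It was at least 2 RPM in all 3 replicates at 920 of them (33.0%), against 7.78% of all merged peaks. Among the 335 start peaks of genes of 13000 bp or less, these shares were 62.4% and 35.2%. The mean signal of 2109 start peaks (75.6%) lay within 2-fold of the class median, close to the 73.5% of all merged peaks within 2-fold of theirs. A mean of 10 RPM was reached by 6 start peaks (0.215%) and by 0.373% of all merged peaks, and 158 start peaks (5.66%) lay below the median of all merged peaks.

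**Figure D1:**
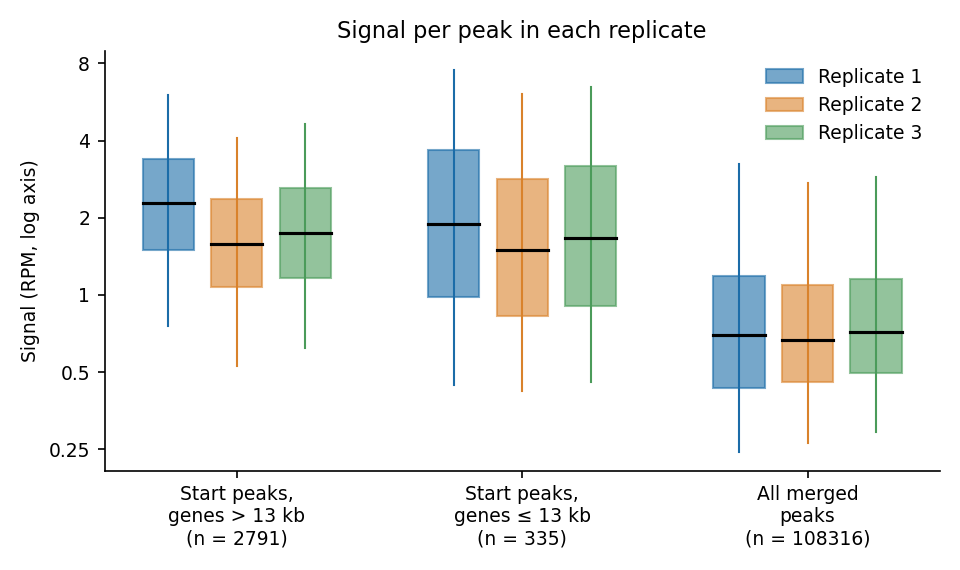
Signal per peak in RPM on a log axis for start peaks of genes above 13000 bp, start peaks of shorter genes and all merged peaks, with 1 box per replicate (box: quartiles, black line: median, thin line: 5th to 95th percentile). The medians of the longer genes, 2.28, 1.58 and 1.75 RPM, lie above those of all peaks, 0.698, 0.668 and 0.716 RPM, and the boxes of the shorter genes are taller.

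The strongest start peak of the class belonged to evm.TU.ctg324.7, a gene of 136.936 kb on the minus strand of ctg324. It lay at 542888 to 544120 and had 19.5, 12.2 and 13.4 RPM in replicates 1, 2 and 3 (15.0 ± 3.91, SD, n = 3). The start peak of evm.TU.ctg1103.1, a gene annotated as a homogentisate dioxygenase, an oxidoreductase of aromatic amino acid breakdown, lay at 63089 to 64630 of ctg1103 and had 16.8, 12.9 and 15.1 RPM (14.9 ± 1.92). These means differed by less than the spread between replicates. The peak of evm.TU.ctg296.18 at 1437882 to 1439553 of ctg296 had 15.3, 10.9 and 11.7 RPM, and that of evm.TU.ctg722.1 at 21212 to 22420 of ctg722 had 14.6, 9.02 and 11.1 RPM. The peak of evm.TU.ctg906.12 at 836892 to 838014 of ctg906 had 13.8, 9.49 and 11.2 RPM. In each of these 5 the highest value was that of replicate 1. The other 5 of the 10 strongest were those of evm.TU.ctg3.40, evm.TU.ctg2069.4, evm.TU.ctg1186.6.3, evm.TU.ctg812.1 and evm.TU.ctg875.5, with means between 9.42 and 10.7 RPM. The gene evm.TU.ctg812.1 carries an ion channel annotation, and its start peak at 113257 to 114419 of ctg812 had 12.1, 7.49 and 9.05 RPM. Neighbours in this order mostly differed by less than their SD. The start peak was the strongest peak assigned to its gene for 9 of these 10 genes. The exception was evm.TU.ctg1186.6.3, whose start peak had 9.68 ± 1.59 RPM and rank 3 among 44 peaks. The strongest of these, with 12.6 ± 0.308 RPM, lay at -42.6 kb from the start, that is upstream.

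The weakest start peaks were narrow and carried few reads. Those of evm.TU.ctg466.7, evm.TU.ctg1142.9, evm.TU.ctg102.4, evm.TU.ctg659.1 and evm.TU.ctg53.23 had means of 0.283 to 0.340 RPM and widths of 200 to 270 bp, with 1 listed summit each. The peak of evm.TU.ctg466.7 at 541371 to 541570 of ctg466 held 19, 12 and 19 reads and was the weakest of the 24 peaks of its gene. The peak of evm.TU.ctg53.23 at 1605099 to 1605316 of ctg53 held 19, 10 and 36 reads. At this depth the order of these 5 was not detectable.

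The summits of start peaks clustered just upstream of the gene start. A summit is the point of highest read pile-up that the peak caller recorded. The 2791 peaks listed 14283 summits, and 65.8% of these lay upstream of the start, at a median position of -51 bp (quartiles -120 and 77.5 bp). Counted in steps of 20 bp, summits were most frequent from -80 to -61 bp, where 1221 (8.55%) fell. The 100 bp upstream of the start held 5072 summits (35.5%) and the 100 bp downstream held 1511 (10.6%). Low shoulders stood on both sides, with 1.28% of summits from 120 to 139 bp and 1.57% from 140 to 159 bp downstream, and with 0.805% from -260 to -241 bp and 1.02% from -320 to -301 bp upstream. Whether these shoulders exceed counting error was not tested. Because a peak had to cover the start, summits had to lie near it. The rule does not set on which side they lie. Genes on both strands gave the same picture, with a median of -54 bp for the 1333 plus strand genes and -48 bp for the 1458 minus strand genes. The peak edges were less one-sided than the summits, with a median of 306 bp of the peak upstream and 286 bp downstream of the start. The listed summits come from merged calls and may include other time points, so they locate openness in the merged list.

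**Figure D2:**
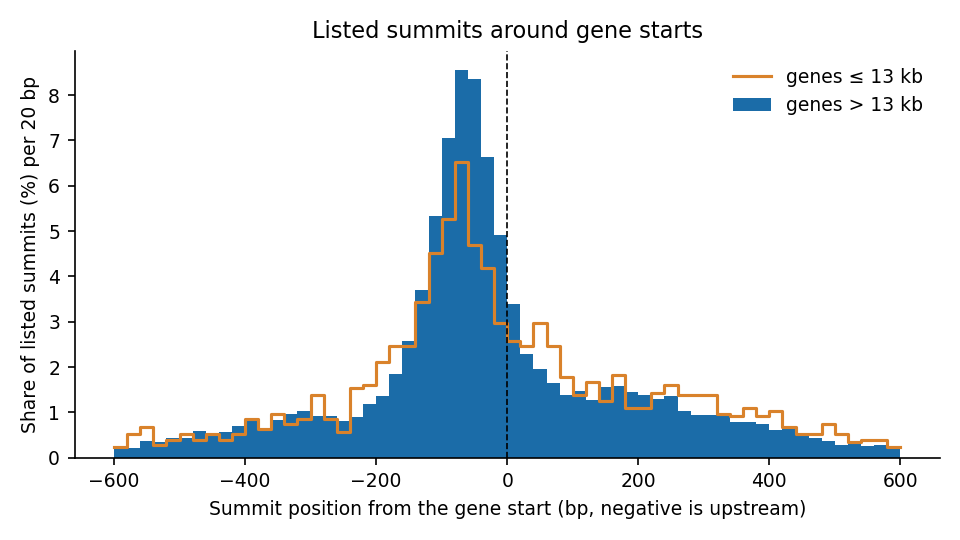
Share of listed summits in percent per 20 bp against their position from the gene start in bp (negative is upstream, dashed line: gene start), for genes above 13000 bp (bars) and shorter genes (line). For the longer genes the highest bar, with 8.55% of the 14283 summits, runs from -80 to -61 bp, and low shoulders lie on both sides.

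A summit within 100 bp upstream was found in 2024 start peaks (72.5%), and these were the stronger ones. Their median signal was 2.43, 1.69 and 1.84 RPM in replicates 1, 2 and 3, against 1.92, 1.34 and 1.44 RPM for the 767 peaks without such a summit. On a log2 scale, after adding 0.0691 RPM (0.1 of the median over all peaks), they were higher by 0.33, 0.32 and 0.34, on average 0.33 ± 0.0084 (SD, n = 3). This exceeded the spread between replicates. The exact permutation of signs over replicates, two-sided, gave p = 0.25, and 3 replicates cannot give a smaller value. Peaks with such a summit also listed more summits, a median of 5 against 4, and were wider, with 658.5 against 609 bp. Per kb of width the difference was 0.16 ± 0.020 (SD, n = 3). The part of summit number in this difference was not tested.

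The signal of a start peak went closely with its width. Start peaks of longer genes were 200 to 2659 bp wide, and their median width of 641 bp (quartiles 443 and 876.5 bp) compared with 317 bp over all merged peaks. When the class was divided by width into 4 groups of near equal size, the median signal from the narrowest to the widest was 0.964 ± 0.181, 1.60 ± 0.314, 2.23 ± 0.432 and 3.21 ± 0.607 RPM (SD, n = 3). The read density hardly moved, with 3.005 ± 0.537, 2.97 ± 0.605, 2.95 ± 0.568 and 2.91 ± 0.540 RPM per kb for the same groups. These densities differed by less than their SD between replicates, and differences between the groups within each library were not computed. Across the 2791 peaks Spearman's rho between width and mean signal was 0.824, and between the number of summits and mean signal 0.840, against 0.780 and 0.772 over all merged peaks. These points share libraries, and a peak with more reads is also called wider, so the coefficients are descriptions.

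Gene length beyond the limit made little difference to the median signal of the start peak. In 4 groups of near equal size by gene length, with median lengths of 23563.5, 43645.5, 69081 and 119552 bp, the median signal was 1.84 ± 0.340, 1.90 ± 0.365, 1.94 ± 0.391 and 1.80 ± 0.344 RPM (SD, n = 3). The group of the longest genes differed from that of the shortest by -0.02, -0.05 and -0.02 on the log2 scale in the respective replicates, on average -0.030 ± 0.015 (SD, n = 3; exact sign-flip permutation p = 0.25, the smallest possible). Per kb of width the difference was 0.0027 ± 0.017, within the spread between replicates. Spearman's rho between gene length and mean signal was -0.017 across the 2791 genes. By mean signal, 61.6%, 64.3%, 58.4% and 51.1% of start peaks in the 4 groups were the strongest peak of their gene. The median number of peaks per gene was 6, 7, 9 and 11 in the same order.

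**Figure D3:**
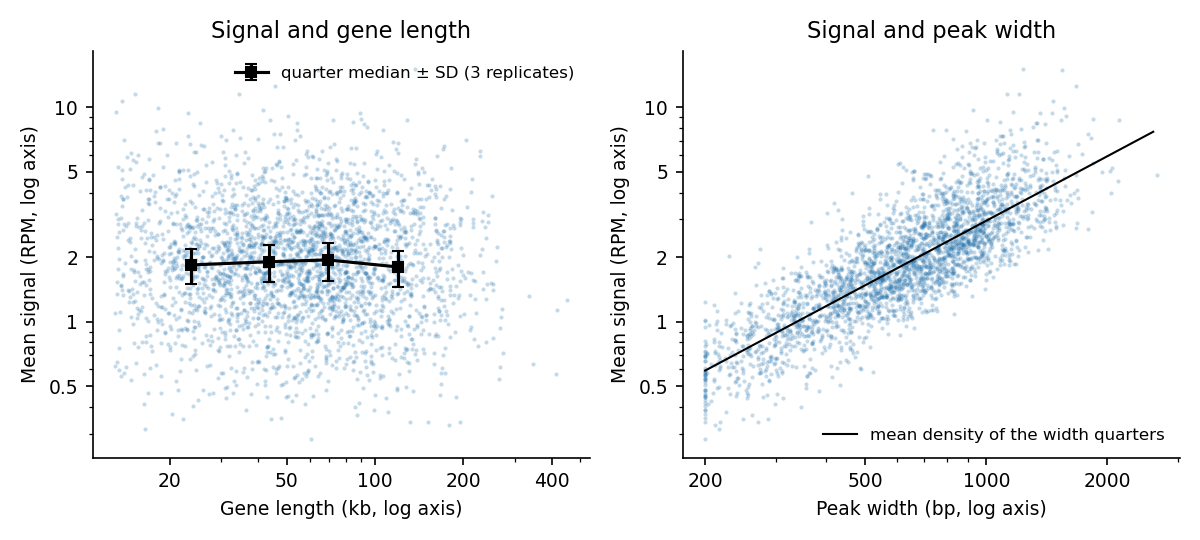
Mean signal of each of the 2791 start peaks in RPM (log axis) against gene length in kb (left, log axis) and peak width in bp (right, log axis). Squares are medians of 4 groups by gene length with SD over 3 replicates, between 1.80 and 1.94 RPM, and the line on the right is the mean read density of 4 groups by width, 2.96 RPM per kb.

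The longest genes had modest start peaks. The 54 genes above 200000 bp had a median of 1.56 ± 0.347 RPM (SD, n = 3). The gene with the greatest length, evm.TU.ctg66.43 of 452.189 kb, had a start peak at 2886589 to 2887165 of ctg66 with 1.45, 1.05 and 1.26 RPM. The start peaks of evm.TU.ctg342.6_evm.TU.ctg342.7, evm.TU.ctg64.19_evm.TU.ctg64.20, evm.TU.ctg1058.14 and evm.TU.ctg387.8_evm.TU.ctg387.9_evm.TU.ctg387.10 had means of 1.14 ± 0.181, 0.572 ± 0.116, 0.635 ± 0.124 and 1.32 ± 0.556 RPM (SD, n = 3). All 5 lay below the class median of 1.88 RPM for the mean signal, and none was the strongest peak of its gene. Of these identifiers, 3 join several gene models, so their listed length may span more than 1 gene. Joined identifiers made up 95 of the 2791 genes.

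A start peak was present at 2791 of the 9002 listed genes above 13000 bp, which is 31.0% (exact 95% interval 30.05 to 31.97). Listed genes are those nearest to at least 1 merged peak. The share was 28.6% for genes up to 25000 bp, 33.5% from there to 50000 bp, 34.4% to 100000 bp, 24.6% to 200000 bp and 26.2% above this. Among the 3000 listed genes of 13000 bp or less it was 11.2% (10.1 to 12.3). Of the 6211 longer genes without a start peak of their own, 64 had a start inside a peak assigned to another gene. These shares describe gene models, whose starts may lack untranslated regions.

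Within a gene, the start peak stood well above the other peaks. The 2791 genes had 25076 further peaks assigned to them, and a median gene had 8 peaks in all (quartiles 5 and 13). For the 2745 genes with at least 1 further peak, the start peak exceeded the median of the gene's other peaks by a median of 1.69, 1.22 and 1.26 on the log2 scale in the 3 libraries. This averaged 1.39 ± 0.26 (SD, n = 3) and exceeded the spread between replicates, with 1.24 without replicate 1 (two-sided exact sign-flip permutation p = 0.25, the smallest possible). The start peak was higher in all 3 replicates in 2410 of the 2745 genes (87.8%) and lower in all 3 in 96. This share was not computed for other peaks, so it has no background here. It is in RPM and was not computed per kb. Against peaks inside the gene body alone the difference was 1.36 ± 0.25 for 2479 genes. Start peaks are selected in part on width, because a wider peak covers a given position more often. Per kb the difference was 0.71, 0.28 and 0.30 in the 3 libraries, on average 0.43 ± 0.25 (SD, n = 3), and 0.29 without replicate 1. With peaks of 400 to 800 bp only, the difference in RPM was 0.63 ± 0.23.

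Separate peaks directly beside the start peak had a signal near the general level in RPM. Further peaks of these genes had a median of 0.719 ± 0.0709 RPM at 1 to 1000 bp upstream and 0.792 ± 0.0826 RPM at 1 to 1000 bp downstream. These peaks were narrower, with median widths of 295.5 and 294 bp against 641 bp for the start peaks. The medians by distance were not divided by width. Between 1000 and 3000 bp the medians were 0.704 ± 0.0489 upstream and 0.826 ± 0.0454 RPM downstream. Farther into and past the gene the level went down slowly, to 0.745 ± 0.0375 RPM between 3000 and 10000 bp, 0.694 ± 0.0241 RPM between 30000 and 100000 bp and 0.641 ± 0.0234 RPM beyond that (SD, n = 3 in each case). For most genes no further peak of the same gene lay within 3000 bp of the start. Another peak of the same gene lay within 1000 bp of the start for 596 genes (21.4%) and within 3000 bp for 997 (35.7%), and the median distance of the nearest one was 5808 bp. Peaks assigned to other genes were not counted, and these shares were not computed for other classes of peaks.

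**Figure D4:**
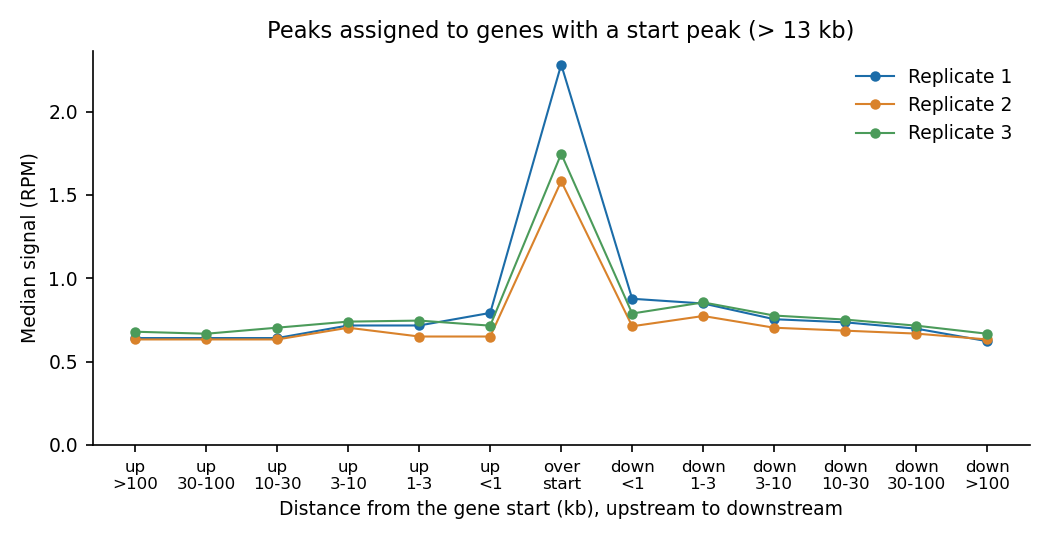
Median signal in RPM of peaks assigned to the 2791 genes, by distance from the gene start in kb (upstream to the left, downstream to the right), with 1 line per replicate. The start class reaches 2.28, 1.58 and 1.75 RPM in replicates 1, 2 and 3, and the other distance classes reach at most 0.877 RPM. Signal is not divided by width, and the median width is 641 bp in the start class and at most 318 bp in the others.

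The start peak was the strongest peak of its gene in 64.2%, 54.6% and 55.4% of the 2791 genes in replicates 1, 2 and 3 (58.1% ± 5.33, SD, n = 3). By mean signal this held for 1643 genes (58.9%, exact 95% interval 57.0 to 60.7), which include 46 genes with no other peak. The share was 54.3% among start peaks of genes of 13000 bp or less, and 11.1% among all merged peaks. The start peak ranked second in 571 genes and lower in 577. By read density per kb the share was 37.9% ± 11.8 (SD, n = 3). In the 1148 genes with a stronger peak elsewhere, that peak lay in the gene body in 490 (42.7%), upstream of the gene in 444 (38.7%) and past its end in 214 (18.6%), at a median of 33894 bp from the start. The medians in these genes were 1.32 RPM for the start peak and 2.49 RPM for the stronger peak. Their order is set by the choice of these genes and is not a result.

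Genes with a start peak also had slightly stronger peaks deep in their bodies. This comparison was chosen after the data had been examined. Median values of body peaks more than 3000 bp away from the start were 0.717, 0.668 and 0.728 RPM in genes with a start peak (10711 peaks) and 0.641, 0.633 and 0.679 RPM in longer genes without one (23396 peaks). The difference was 0.15, 0.07 and 0.09 on the log2 scale, with a mean of 0.10 ± 0.039 (SD, n = 3), and 0.11 ± 0.032 per kb of width. It was above 0 in each replicate and larger than the spread between replicates (two-sided exact sign-flip permutation p = 0.25, the smallest possible). It is small beside the contrast at the start itself.

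Start peaks of longer genes were compared with the 335 start peaks of genes of 13000 bp or less. The shorter genes had medians of 1.89, 1.49 and 1.66 RPM in replicates 1, 2 and 3. The longer genes were higher by 0.27, 0.08 and 0.07 on the log2 scale, on average 0.14 ± 0.11 (SD, n = 3; exact sign-flip permutation p = 0.25, the smallest possible), and by 0.07 without replicate 1. The difference lay within the spread between replicates once width was taken into account. Per kb it was 0.04, -0.05 and -0.04, on average -0.015 ± 0.050 (exact p = 0.75), and among peaks of 400 to 800 bp it was -0.015 ± 0.047. The classes differed more in their spread. The quartiles of mean signal were 1.27 and 2.78 RPM for longer genes and 0.885 and 3.30 RPM for shorter ones, and 75.6% of the former against 54.0% of the latter lay within 2-fold of their own median. Peaks with a single summit made up 10.03% of the longer and 20.9% of the shorter genes, and the 100 bp upstream of the start held 35.5% and 23.7% of their summits. At the limit itself, the start peaks of evm.TU.ctg998.8_evm.TU.ctg998.9 (13.05 kb) and evm.TU.ctg246.21 (13.073 kb), just inside, had 1.09 ± 0.205 and 0.623 ± 0.193 RPM. Those of evm.TU.ctg336.4 (12.996 kb) and evm.TU.ctg76.49 (12.993 kb), just outside, had 2.85 ± 0.627 and 0.602 ± 0.119 RPM (SD, n = 3 in each case).

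Functions were known for a part of the class only. The study's annotation table, of which 567 genes were read here, gave Gene Ontology terms for 229 of the 2791 genes. The study chose these genes for changes between time points, with these samples among those compared, so the groups are not independent evidence and are described by counts. The median start peak of the 229 had 2.42 RPM, against 1.84 RPM for the rest of the class. The class median of 1.88 RPM was exceeded by 8 of 9 sequence-specific transcription factors, 8 of 9 genes of RNA binding, 7 of 9 transmembrane transporters, 14 of 19 oxidoreductases, 12 of 16 genes of zinc ion binding and 5 of 7 protein kinases. It was exceeded by 11 of 19 genes of signal transduction, 7 of 11 of protein transport, 5 of 9 peptidases and 2 of 4 genes of cytoskeletal protein binding. The 229 annotated genes together had a median above this level, and their share above it was not computed. These counts therefore do not set a function apart from annotated genes in general. The group medians were 2.72 RPM for the transcription factors, 2.88 RPM for 7 protein kinases, 4.13 RPM for 9 transmembrane transporters, 2.49 RPM for 19 genes of signal transduction, 2.41 RPM for 19 oxidoreductases and 2.72 RPM for 16 genes of zinc ion binding. They were 1.90 RPM for 9 peptidases, 2.05 RPM for 11 genes of protein transport, 2.80 RPM for 9 genes of RNA binding and 1.86 RPM for 4 genes of cytoskeletal protein binding. Each group spanned a wide range, such as 0.570 to 7.13 RPM for signal transduction.

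The strongest start peak among the kinases, which attach phosphate groups to proteins, was that of evm.TU.ctg9.21 at 1099820 to 1100821 of ctg9, with 11.4, 7.07 and 7.73 RPM. The next kinase, evm.TU.ctg9.29 on the same contig, had 3.79, 2.72 and 3.18 RPM at its start and a stronger peak of 7.22 ± 1.62 RPM 31.2 kb into the gene. The start peak of evm.TU.ctg29.4, annotated as a zinc-binding transcription factor with a part in signal transduction, lay at 320695 to 321522 of ctg29 and had 8.60, 6.12 and 6.66 RPM. The kinase evm.TU.ctg9.29 was below evm.TU.ctg9.21 and evm.TU.ctg29.4 in every replicate. Another transcription factor, evm.TU.ctg660.28, had 4.88, 3.31 and 4.09 RPM, and evm.TU.ctg227.8, annotated with signal transduction, had 8.02, 4.98 and 5.77 RPM. The transporter gene evm.TU.ctg740.1, of 204.559 kb, had 9.07, 5.63 and 6.43 RPM at its start, which had rank 3 among its 47 peaks. All 3 values were above the median of 1.56 RPM for genes longer than 200000 bp. The oxidoreductase evm.TU.ctg997.1 had 7.53 ± 1.93 RPM, the zinc-binding evm.TU.ctg1.46_evm.TU.ctg1.48 had 6.27 ± 1.94 RPM, and the peptidases evm.TU.ctg135.5 and evm.TU.ctg140.10 had 5.85 ± 0.940 and 2.72 ± 0.671 RPM. The protein transport genes evm.TU.ctg30.21 and evm.TU.ctg448.11 had 3.87 ± 0.922 and 3.63 ± 1.00 RPM, while the strongest other peaks of these genes had 1.30 ± 0.0869 and 0.875 ± 0.0593 RPM. The RNA-binding genes evm.TU.ctg538.1 and evm.TU.ctg228.20 had 6.38 ± 1.42 and 4.92 ± 0.918 RPM. The strongest other peaks of these genes, far from the start, had 15.0 ± 2.33 and 5.19 ± 0.603 RPM. For evm.TU.ctg228.20 the difference was smaller than the SD between replicates. The cytoskeletal genes evm.TU.ctg28.5, with an actin-binding annotation, and evm.TU.ctg121.11 had 2.66 ± 0.425 and 2.07 ± 0.628 RPM (SD, n = 3 in each case).

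Of 21 genes that the study names, 20 are listed genes above 13000 bp, and 6 had a start peak in this class. This count is near the share of all 9002 listed genes above 13000 bp that had one, 31.0%. At evm.TU.ctg321.8, which encodes the Wnt receptor Frizzled-10, the start peak had 5.94, 4.24 and 4.31 RPM at 260129 to 261436 of ctg321, and 94.8% of the class had this signal or less. The genes evm.TU.ctg115.32, evm.TU.ctg25.48 and evm.TU.ctg288.3 were listed by the study as candidates for G-protein-coupled receptors, and are not among those it kept after predicting their structure. Their start peaks, at 1877630 to 1878761 of ctg115, 3360322 to 3360745 of ctg25 and 304426 to 304725 of ctg288, had 3.36 ± 0.908, 2.34 ± 0.577 and 0.851 ± 0.0854 RPM. The last of these held 41, 53 and 66 reads and had rank 9 among the 13 peaks of its gene, behind a peak of 3.30 ± 0.992 RPM that lay 8.13 kb inside. The start peak of evm.TU.ctg756.7, the gene of the G-protein regulator Loco, had 1.62, 1.42 and 1.31 RPM. The gene evm.TU.ctg470.6, annotated with GTPase activity, had 1.94, 1.58 and 1.33 RPM. Both lay below the class median and had a peak of higher mean signal elsewhere. These other peaks had 2.78 ± 0.536 RPM for evm.TU.ctg756.7 and 1.85 ± 0.224 RPM for evm.TU.ctg470.6. For evm.TU.ctg470.6, whose start peak had 1.62 ± 0.306 RPM, the difference was within the SD between replicates.

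In 56 of the 2791 start peaks the start of a second listed gene, running in the opposite direction, lay upstream in the same peak. These peaks had a median of 3.83, 2.43 and 2.63 RPM in replicates 1, 2 and 3, against 2.24, 1.56 and 1.72 RPM for the other 2735, a difference of 0.65 ± 0.088 on the log2 scale (SD, n = 3; exact sign-flip permutation p = 0.25, the smallest possible), and of -0.0063 ± 0.028 per kb. Their median width was 964 bp against 636 bp. To cover both starts a peak has to span the distance between them, so these peaks are selected in part on width. The difference in RPM is therefore not independent of this selection.

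Replicate 1 was the highest replicate at 2440 of the 2791 start peaks (87.4%, exact 95% interval 86.1 to 88.6), against 36.6% of all merged peaks. The order replicate 1 above 3 above 2 occurred in 1712 start peaks (61.3%), against 22.4% of all merged peaks. The median log2 ratio of replicate 1 to the geometric mean of the others was 0.47 (quartiles 0.29 and 0.62), and 0.023 at the other peaks of the same genes. The excess thus stood at and near the start. It was 0.30 at 1 to 1000 bp downstream and 0.21 at 1 to 1000 bp upstream, and at most 0.10 in each distance class beyond 1000 bp. It varied little with signal, from 0.40 for start peaks below 1 RPM to 0.51 for those of at least 4 RPM. Peaks away from starts had -0.065 below 1 RPM, 0.093 at 1 to 2 RPM, 0.16 at 2 to 4 RPM and 0.089 above. At shorter genes the median ratio was 0.34, with 0.15 for the 98 genes up to 1000 bp, 0.15 for the 71 genes from there to 5000 bp and 0.44 for the 166 genes above this. Replicate 1 was the highest at 63.0% of the start peaks of shorter genes, and 43.0% had the order replicate 1 above 3 above 2.

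**Figure D5:**
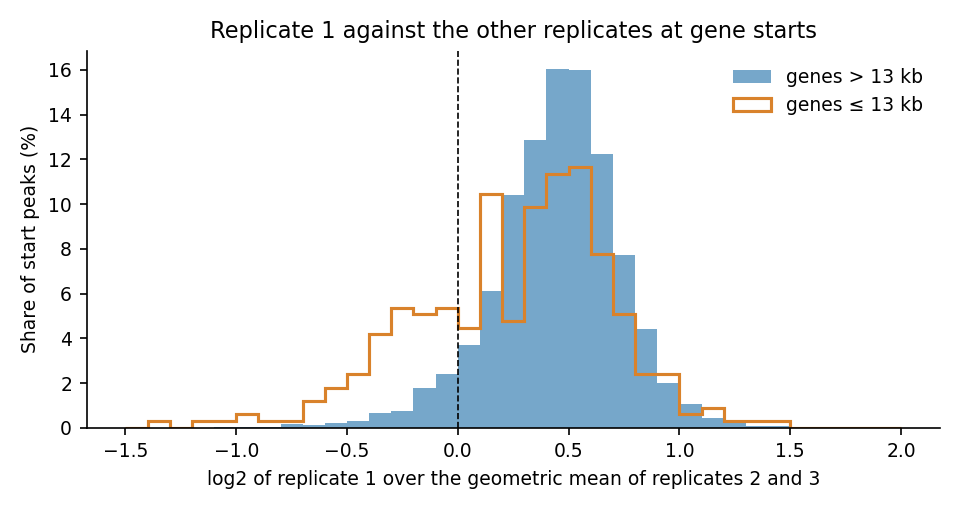
Share of start peaks in percent against the log2 ratio of replicate 1 to the geometric mean of replicates 2 and 3, for genes above 13000 bp (filled) and shorter genes (line), with a dashed line at equal signal. The longer genes form 1 hump with a median of 0.47, and the shorter genes have a further shoulder below 0 and a median of 0.34.

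Beside this common shift the replicates ranked the start peaks alike. Spearman's rho across the 2791 peaks was 0.935 for replicates 1 and 2 and 0.945 for each pair with replicate 3, against 0.820, 0.840 and 0.845 over all merged peaks. Peaks are not independent replicates. All merged peaks also had a lower median signal, 0.694 against 1.87 RPM, and its part in this was not tested. The biological coefficient of variation from edgeR was 0.209 for these start peaks and 0.0922 without replicate 1. It was 0.198 and 0.0901 for start peaks of shorter genes, and 0.188 and 0.154 for all merged peaks. With counts divided by 2, to allow for a count of both mates, these values were 0.186 and 0.0370 for the longer genes. They were 0.170 and 0.0163 for the shorter genes, and 0.128 and 0.0669 for all merged peaks. Relative to its mean, the SD among start peaks of at least 1 RPM was largest for evm.TU.ctg379.14, with 2.57, 0.984 and 1.03 RPM, followed by evm.TU.ctg317.10, with 2.17, 0.897 and 0.837 RPM, and evm.TU.ctg68.47, with 1.98, 0.598 and 1.14 RPM. In all 3 the high value was that of replicate 1.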

How the data were processed

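The authors trimmed the reads, aligned them to ASM3288406v1 with BWA, kept deduplicated, properly paired reads with a mapping quality of at least 13, called peaks with MACS2 and assigned genes with ChIPseeker. The submitters' processing notes also list BWA and MACS2. The deposited table holds raw read counts per merged peak and library. The deposited RPM values equal the count plus 1 over a library total, which was recovered from them. The sources used here do not state which samples the peaks were merged from. The recovered totals are close to what counting both mates of each deduplicated pair would give, though this is not stated, so intervals are probably too narrow. The deposited positions, lengths and distances are other values, in bp. Columns of other samples numbered 0. A script checked that distance 0 meant that the peak covered the gene start, with 0 exceptions.

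Medians were taken per replicate on RPM, or on log2(RPM + 0.0691), or per kb of width with 0.216 added. Differences were compared over the 3 replicates by exact permutation of their signs, two-sided. TMM factors and dispersions came from edgeR 4.0.16 and size factors from DESeq2 1.42.0. Scripts were tested on simulated data. Genes were named as the 10 strongest and 5 weakest start peaks, the 5 longest genes, those next to 13000 bp, those the study names, the 2 strongest per function and the 3 of largest relative SD. Members, lists and tests were chosen with earlier results of these data known.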

Additional observations from a re-analysis of the deposited data

How the results depend on the processing

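Of 100 alternative values, 91 kept their direction or, for results without a test, moved by less than a margin. This margin was the SD between replicates. For the share at the signal limit it was instead taken from the width of its binomial interval, which covers counting error over peaks only. Where a test was run, its side of the 0.05 threshold could not change with 3 replicates or fewer, so it adds nothing to this count. The 91 include all values under TMM scaling, DESeq2 size factors, a minimum of 10 reads, a pseudocount 10 times larger and the removal of joined identifiers. The excess of longer over shorter genes was -0.015 in peaks of 400 to 800 bp, and the same contrast per kb was 0.027 there and -0.044 to 0.0014 with 1 replicate left out, so its sign was not settled. The difference for divergent starts was -0.0063 per kb. Sizes moved more: with a pseudocount 10 times larger the excess of the start peak over other peaks of its gene was 0.91 in RPM and 0.25 per kb, without replicate 1 the excess of longer over shorter genes was 0.07, and without joined identifiers the difference of the longest from the shortest genes was -0.020. The share of start peaks that were the strongest of their gene was 74.4% against body peaks only and 37.9% per kb. The share at the signal limit in all replicates was 33.0% with 2 RPM, and 76.3% to 81.4% with 1 replicate left out. The comparisons for body peaks, upstream summits and divergent starts, with their alternatives, were chosen after seeing the data. No paired analysis was possible because there was 1 group, and differences between classes were taken within each library. No test here could pass a threshold of 0.05 with 3 replicates, and depth limits the weakest start peaks most.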
